A study of Mus musculus with 16 samples.

Results

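The GATA family of the mouse has 6 genes, Gata1 to Gata6, and their chromatin in cultured macrophages was described from every deposited peak that overlapped a gene or the 10 kb on either side of it on the mouse build GRCm38. These windows held 123 of the 368675 peaks of 9 ChIP-seq peak lists, and 5 of the 6 genes had a peak in at least 1 list. The 6 windows covered 297.8 kb in all.

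The cells were bone marrow cells of C57BL/6 mice kept for 5 days with M-CSF, the growth factor of macrophages. In wild-type cells EZH2 was mapped without treatment and after nigericin, an ionophore that activates the NLRP3 inflammasome, given to cells primed with the bacterial lipopolysaccharide LPS. The transcription factor p53 and the histone marks H3K27me3 and H3K27ac were mapped in untreated wild-type cells, and the deacetylase SIRT1 in 2 untreated pairs, Ezh2 knockout cells with their wild-type cells and p53 knockout cells with theirs. Each of these 9 groups is 1 immunoprecipitated library (n = 1), and the other 7 samples are inputs, so no difference between conditions has a replicate check or a test. The labels do not say how the knockouts were made, in which cells the genes were lost, or how long nigericin acted.

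GATA proteins are zinc finger transcription factors that bind the letters GATA. Gata1, Gata2 and Gata3 serve blood lineages: Gata1 drives red cells, megakaryocytes, mast cells and eosinophils, Gata2 acts in stem and progenitor cells, and Gata3 directs T helper 2 and innate lymphoid cells. Gata4, Gata5 and Gata6 act mainly in heart, gut and other endoderm tissue, and Gata6 is also used by resident macrophages of the peritoneum. EZH2 is the enzyme of Polycomb repressive complex 2, which places H3K27me3 on the genes of lineages a cell has not taken, often over promoters rich in CG dinucleotides. H3K27ac marks active promoters and enhancers and sits on the same residue, so a histone tail cannot carry both there.

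The promoters are shown because CG content and the presence of the mark differed among the members. RefSeq's promoter table for GRCm38.p6 matched 4 of the 6 genes, Gata1, Gata2 (with an outer and an inner start, the inner one 4773 bp downstream), Gata3 and Gata5. Each sequence runs 5′ to 3′ from 250 bases before the start to 50 bases after it, and capitals mark each CG.
Gata1 (chrX:7967861-7968160, minus strand): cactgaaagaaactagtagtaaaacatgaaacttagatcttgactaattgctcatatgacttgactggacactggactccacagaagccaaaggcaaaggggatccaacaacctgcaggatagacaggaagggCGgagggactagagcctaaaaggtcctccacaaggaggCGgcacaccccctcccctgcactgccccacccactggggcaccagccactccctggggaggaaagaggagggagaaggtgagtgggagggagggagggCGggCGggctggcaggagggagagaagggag
Gata2, outer start (chr6:88193641-88193940, plus strand): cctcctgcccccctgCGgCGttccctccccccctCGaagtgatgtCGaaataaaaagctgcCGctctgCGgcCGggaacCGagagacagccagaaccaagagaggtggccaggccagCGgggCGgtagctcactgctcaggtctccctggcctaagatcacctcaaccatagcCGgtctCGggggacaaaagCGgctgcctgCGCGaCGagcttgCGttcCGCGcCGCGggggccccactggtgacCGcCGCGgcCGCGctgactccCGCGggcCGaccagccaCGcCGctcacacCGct
Gata2, inner start (chr6:88198414-88198713, plus strand): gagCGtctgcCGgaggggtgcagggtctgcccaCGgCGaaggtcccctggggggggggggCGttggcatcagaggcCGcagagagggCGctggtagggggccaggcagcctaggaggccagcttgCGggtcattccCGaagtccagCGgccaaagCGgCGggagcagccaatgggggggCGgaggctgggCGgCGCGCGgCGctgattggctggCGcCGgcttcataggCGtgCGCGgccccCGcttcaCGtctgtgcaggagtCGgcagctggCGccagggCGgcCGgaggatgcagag
Gata3 (chr2:9878551-9878850, minus strand): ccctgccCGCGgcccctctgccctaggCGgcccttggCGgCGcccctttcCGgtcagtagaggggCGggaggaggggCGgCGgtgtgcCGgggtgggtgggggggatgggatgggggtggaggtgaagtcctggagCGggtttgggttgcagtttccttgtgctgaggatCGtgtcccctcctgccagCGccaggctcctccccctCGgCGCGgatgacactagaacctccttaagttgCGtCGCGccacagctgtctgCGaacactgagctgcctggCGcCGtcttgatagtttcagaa
Gata5 (chr2:180334630-180334929, minus strand): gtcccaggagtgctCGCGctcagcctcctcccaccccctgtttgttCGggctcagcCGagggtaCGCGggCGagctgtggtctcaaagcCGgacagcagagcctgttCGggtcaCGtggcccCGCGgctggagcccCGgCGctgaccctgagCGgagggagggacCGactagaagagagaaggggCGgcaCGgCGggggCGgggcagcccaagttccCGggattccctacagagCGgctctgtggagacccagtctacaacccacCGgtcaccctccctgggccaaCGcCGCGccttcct

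The Gata1 promoter held 4 CG dinucleotides, fewer than the median of 7 over the 32851 promoters of the same length in the table. The others held 22 (Gata3), 26 (Gata5), 29 (inner Gata2 start) and 32 (outer Gata2 start), and 23.1% of all promoters had at least as many as Gata3. The ratio of observed to expected CG was 0.167 at Gata1 and between 0.658 and 0.90 at the other 4. Of these 5 promoters, 3 lay under an H3K27me3 peak, namely both of Gata2 and that of Gata5, against 15.3% of all promoters. The Gata1 and Gata3 promoters were met by no peak of any list. The string AGATAA was searched on both strands, as were the variants with a first T (TGATAA), with a last G (AGATAG) and with both (TGATAG). The only match was TGATAG in the Gata3 promoter, with its first base at position 37 counted from the start as 1. Of all promoters in the table, 29.8% held at least 1 of these 4 strings.

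H3K27me3 lay over every GATA gene other than Gata1 in untreated macrophages. The fold of a peak is the authors' ratio of fragments at its summit to the local background, with 1 added to each. The highest fold was 16.6 at Gata4, 12.4 at Gata2, 9.68 at Gata3, 8.79 at Gata6 and 7.66 at Gata5. Among the 21883 protein-coding genes, 42.7% had an H3K27me3 peak in a window drawn the same way, and the median highest fold of those genes was 5.08. The 31 peaks of the 6 windows covered 54.4% of their length. The order of the covered share was not the order of the folds. Peaks covered 85.7% of the Gata4 window, 75.1% of the Gata2 window, 56.3% of the Gata3 window, 43.5% of the Gata5 window and 29.4% of the Gata6 window, against a median of 11.1% over genes with a peak. With 1 library, the spread behind neighbours in these orders is not known.

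**Figure D1:**
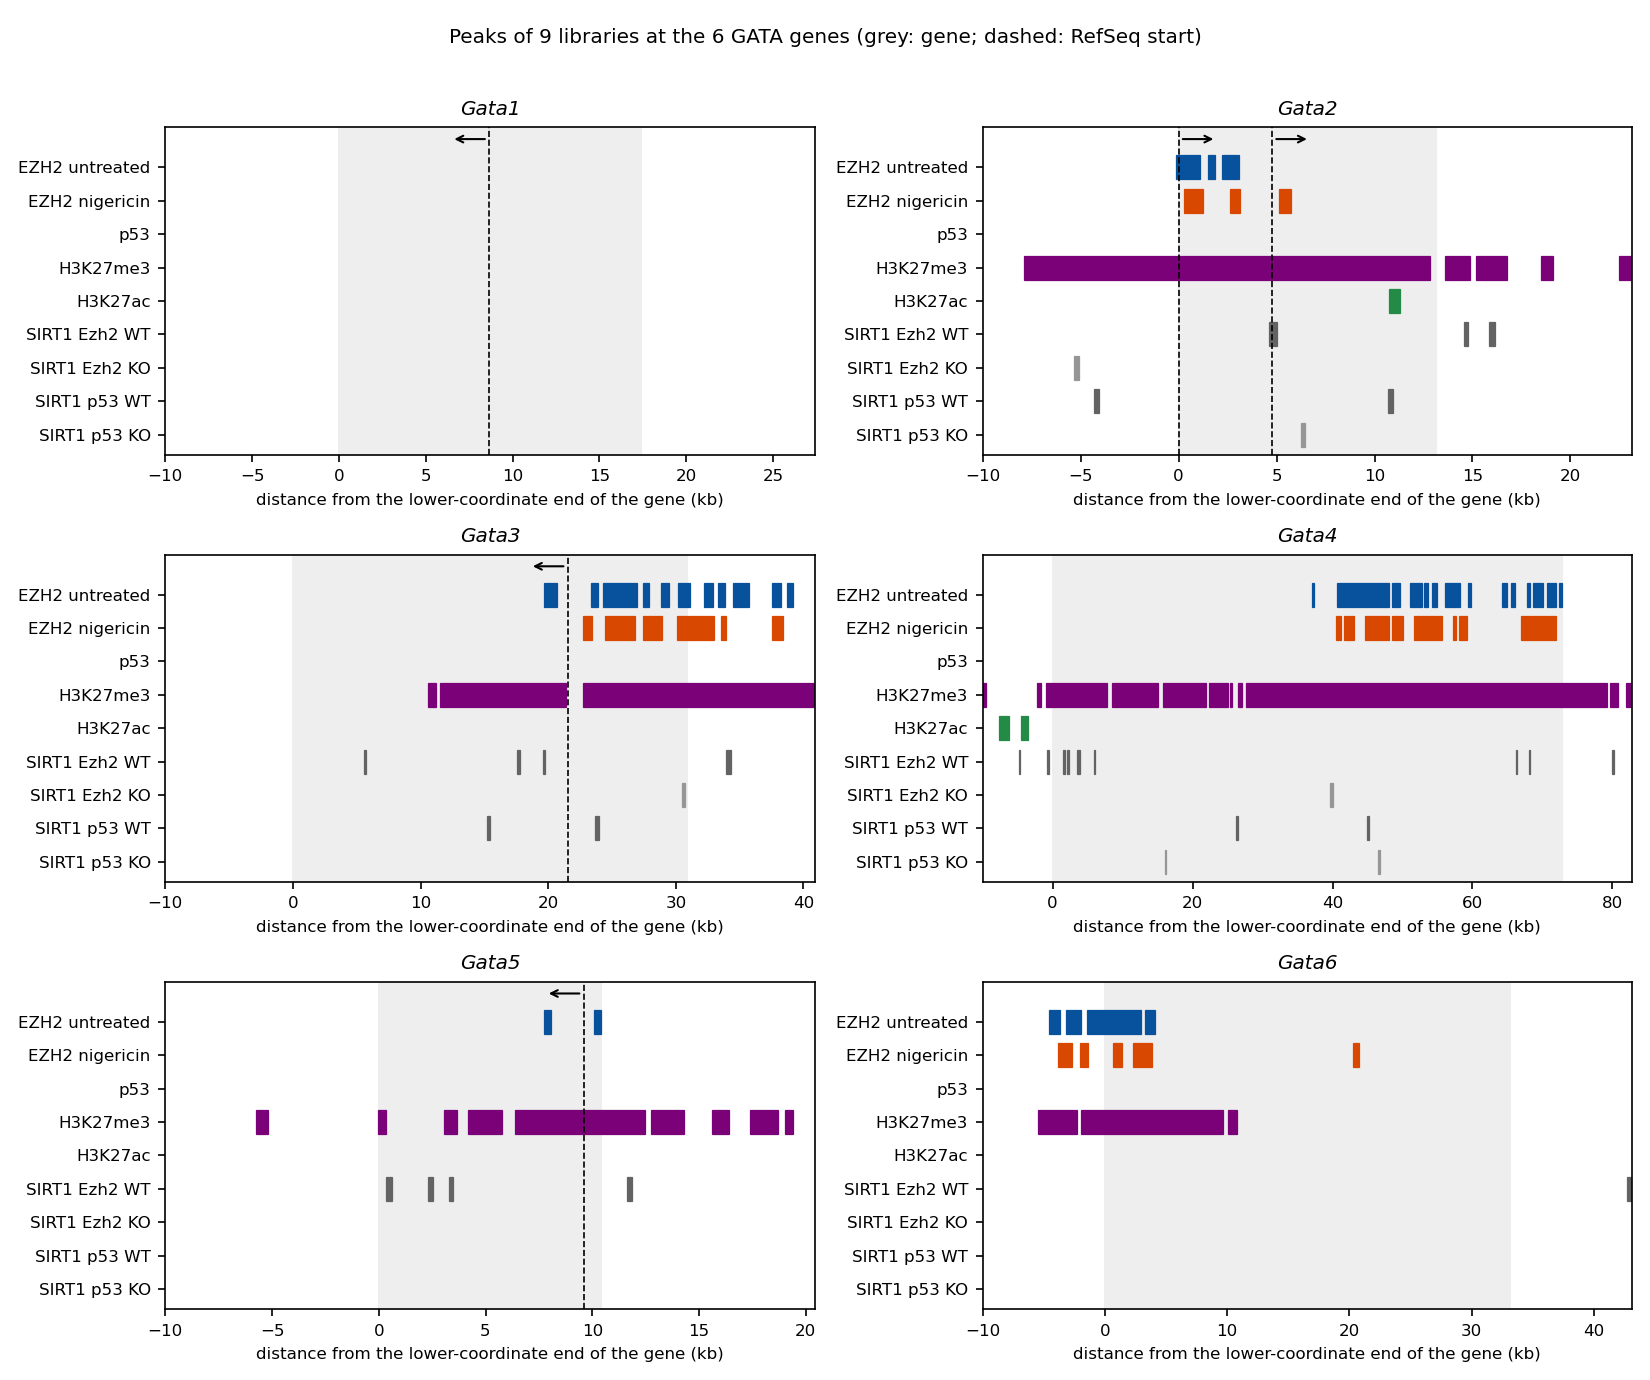
Peaks of the 9 libraries at the 6 GATA genes; the x axis is the distance in kb from the gene's lower-coordinate end, grey marks the gene, each bar is a peak, and dashed lines with arrows are RefSeq start sites and their direction, which the tables used here give for Gata1, Gata2, Gata3 and Gata5. Gata1 is empty in every row, while H3K27me3 peaks cover the other 5 genes in part or nearly whole, and EZH2 peaks meet those stretches in all cases but 1, a nigericin peak in the upper part of Gata6.

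Over the gene itself, Gata2 carried the mark as 1 block. The other H3K27me3 peaks of its window, of 2.54- to 3.95-fold, lay past the gene's upper end. A single H3K27me3 peak of 20717 bp reached from −7895 to 12821 bp, counted from the gene's lower-coordinate end, and so held both start sites and 97.6% of the gene. Its summit rested on 49 fragments, with a −log10 q of 37.1 (q is the p-value of the peak adjusted over the whole list).

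Gata3 carried it on either side of its listed RefSeq start. A peak of 9885 bp (8.51-fold) lay downstream of this start. One of 20909 bp (9.68-fold) lay upstream of it and reached beyond the gene's end. The 1337 bp between them held the listed start, 129 bp from the edge of the downstream domain and 1209 bp from that of the upstream domain. The whole promoter shown above fell in this gap. The gene spans 30876 bp and so runs on past the listed start, and its upper end lay inside the upstream domain. Whether transcripts also start there was not examined. No p53, SIRT1, H3K27ac or untreated EZH2 peak entered the gap, and a nigericin EZH2 peak began at its upstream edge, at 22728 bp.

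Gata4, a regulator of heart and gut development, had the strongest mark of the family. One peak of 51695 bp spanned from 27572 to 79266 bp past the gene's lower end and rested on 66 fragments at its summit (−log10 q 58.3). By highest H3K27me3 fold in the window, Gata4 ranked 4 among the 21883 protein-coding genes. The lower part of the gene was marked too, by peaks of 8.89-fold from −884 to 7745 bp and from 8455 to 15014 bp. The covered share of the gene itself was 95.1%.

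Gata5, a paralog active in gut and endocardium, was marked in pieces. Its window held 9 H3K27me3 peaks, the second most after the 11 at Gata4. Of the 9, 4 touched the gene, and 8 were between 3.21- and 4.94-fold. The strongest, at 7.66-fold on 30 fragments, covered the start (at 9591 bp), with its summit upstream of it at 9738 bp.

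At Gata6 the mark stopped inside the gene. The 3 peaks ran from −5504 to 10768 bp and covered 31.4% of the gene, leaving the upper part of its 33127 bp without a peak. The first peak, at 6.92-fold, overlapped the antisense gene Gata6os and no part of Gata6, and the strongest, at 8.79-fold, crossed the lower end of Gata6. Peaks carry no strand, so signal over Gata6os and Gata6, and likewise over Gata5os and Gata5, cannot be told apart where the genes overlap. The same holds at Gata2, which the noncoding RNA gene Gm38708 overlaps up to 4393 bp past the lower end. It also holds at Gata3, which 4930412O13Rik and 9230102O04Rik overlap.

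**Figure D2:**
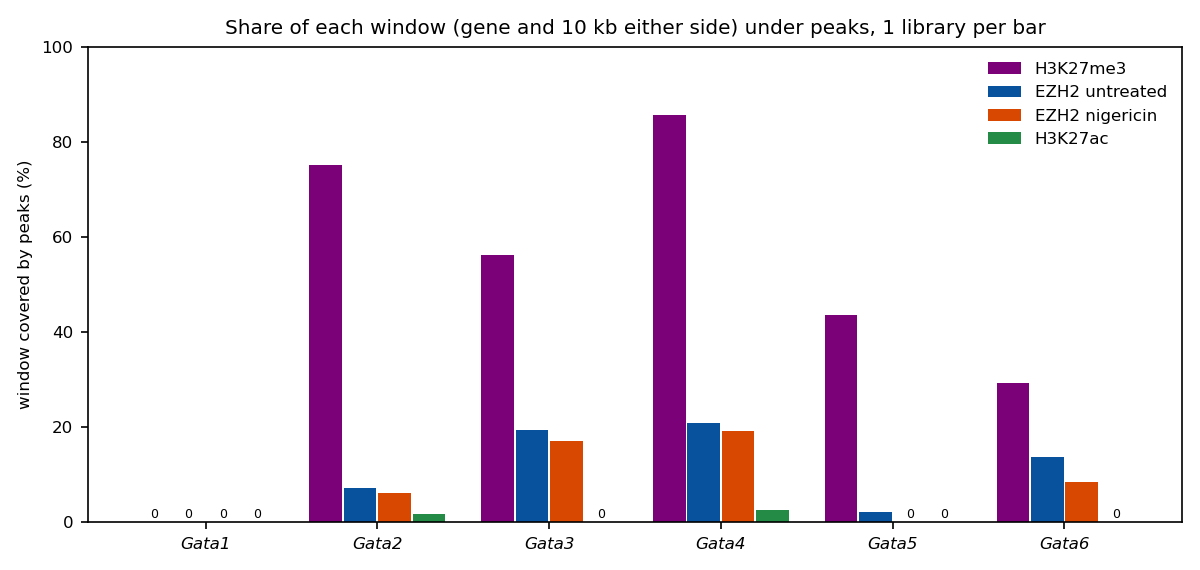
Percent of each gene's window (the gene and 10 kb either side) lying under peaks, with 1 library per bar and so no error bar; purple bars are H3K27me3, blue and orange EZH2 untreated and after nigericin, green H3K27ac, and 0 marks a window with no peak. H3K27me3 goes from 85.7% at Gata4 down to 29.4% at Gata6 and 0 at Gata1, and EZH2 stays at or below 21.0%.

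H3K27ac reached 2 of the 6 windows, a share near the 41.6% of protein-coding genes, with 3 peaks that covered 1.03% of the windows. This came to 10.1 peaks per Mb, against 29.2 per Mb over the windows of all protein-coding genes. The covered share was 1.70% of the Gata2 window and 2.71% of the Gata4 window, against a median of 5.96% over genes with a peak. The highest folds, 4.21 in the Gata2 window and 4.17 in the Gata4 window, stood beside a median of 3.91 over genes with a peak. Only 1 of these peaks lay in a GATA gene. That peak, 564 bp long and 10727 to 11290 bp past the lower end of Gata2, rested on 17 fragments (−log10 q 5.70), and lay inside the H3K27me3 block. It was placed 6271 bp downstream of the inner start at its summit. Whether both marks were on the same chromosomes or on those of different cells cannot be told apart in bulk cells. The other 2 peaks were in the Gata4 window but outside the gene. One of 3.34-fold lay within the neighbouring DNA repair gene Neil2. One of 4.17-fold lay between the genes, from −4550 to −3468 bp counted from the lower end of Gata4. Neil2 ends at −4760 bp on the same count, so this 4.17-fold peak was nearer to Neil2 than to Gata4. The first H3K27me3 peak beyond this H3K27ac peak on the Gata4 side began at −2206 bp. In the same library all 8 macrophage marker genes listed had an H3K27ac peak and none had H3K27me3, for example Csf1r (the M-CSF receptor, 7.87-fold H3K27ac) and Spi1 (which encodes PU.1, 10.8-fold).

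EZH2 was called at 5 of the 6 GATA genes in untreated cells, against 19.6% of protein-coding genes, and at 4 after nigericin, against 12.5%. The untreated list placed 34 peaks in the windows, or 114 per Mb against 4.74 per Mb over the windows of all protein-coding genes. The nigericin list placed 22, or 73.9 per Mb against 2.85. Of the 34 untreated peaks 17 had a q of at most 0.05, as had 11 of the 22 nigericin peaks, since these lists were limited by the p-value and hold many weak peaks. Across the whole untreated list 17.9% of peaks had such a q, and across the nigericin list 14.8%.

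All 34 untreated EZH2 peaks overlapped an H3K27me3 peak (100%, Wilson 95% interval 89.8 to 100), compared with 41.5% of all peaks of that list. After nigericin 21 of 22 did (95.5%, 78.2 to 99.2), compared with 52.6%. The exception was a weak peak in the unmarked upper part of Gata6, from 20337 to 20806 bp, of 3.27-fold on 10 fragments. These shares stand beside the 54.4% of the windows that H3K27me3 covers, and neighbouring peaks of 1 gene are not independent, so the intervals cover counting error only. No EZH2 peak of either list met H3K27ac in the windows (0 of 34 and 0 of 22, with upper limits of 10.2% and 14.9%), where 2.17% and 4.13% of all peaks did.

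Of the 31 H3K27me3 peaks in the windows 7 met an untreated EZH2 peak (22.6%, Wilson 95% interval 11.4 to 39.8) and 5 a nigericin peak (16.1%, 7.09 to 32.6), against 2.90% and 1.82% of all H3K27me3 peaks. These shares were not matched for length, and a longer peak has more room to meet another. The 7 were 3241 to 51695 bp long, while all 88037 H3K27me3 peaks together covered 124 Mb. At Gata2 the untreated EZH2 peaks lay at the 5′ end, where Gm38708 overlaps the gene. The 3 untreated peaks reached from −125 to 3059 bp, were 2.26-, 1.89- and 3.44-fold, and rested on 19, 11 and 20 fragments. These folds were low beside a high local background of 7.85, 5.34 and 5.10 fragments, while 2 of the 3 summits held more than the median of 15 fragments at Gata4. Only the 3.44-fold peak had a q of at most 0.05. The first of them covered the outer start.

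At Gata3, 10 of the 11 untreated peaks lay upstream of the listed start and 1 downstream of it, at 19690 to 20662 bp (3.0-fold). Because the gene runs on past that start, 6 of the 11 touched the gene. The strongest was 4.13-fold on 31 fragments, from 24287 to 26928 bp, where the genes 4930412O13Rik and 9230102O04Rik overlap Gata3. The folds of the 11 ran from 2.14 to 4.13, with a median of 2.90.

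At Gata4 all 14 untreated peaks fell inside the 51695-bp H3K27me3 domain, from 37037 to 72846 bp, and none in the lower part of the gene, although H3K27me3 reached 8.89-fold there. The highest, 6.17-fold on 24 fragments, had its summit at 57470 bp, and the H3K27me3 summit was at 58279 bp. The longest, 7498 bp, was 5.82-fold on 34 fragments.

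Gata5 had the weakest EZH2 signal of the genes with a peak, with 2.38- and 2.72-fold on 8 and 10 fragments and a q above 0.05 for both. At Gata6, 4 peaks from −4558 to 4092 bp were 3.34-, 3.19-, 7.52- and 3.65-fold. The 7.52-fold peak crossed the lower end of the gene and had the most fragments of any EZH2 peak in the family, 36. By highest untreated EZH2 fold Gata6 ranked 13, Gata4 67, Gata3 414, Gata2 881 and Gata5 2012 among the 21883 protein-coding genes.

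**Figure D3:**
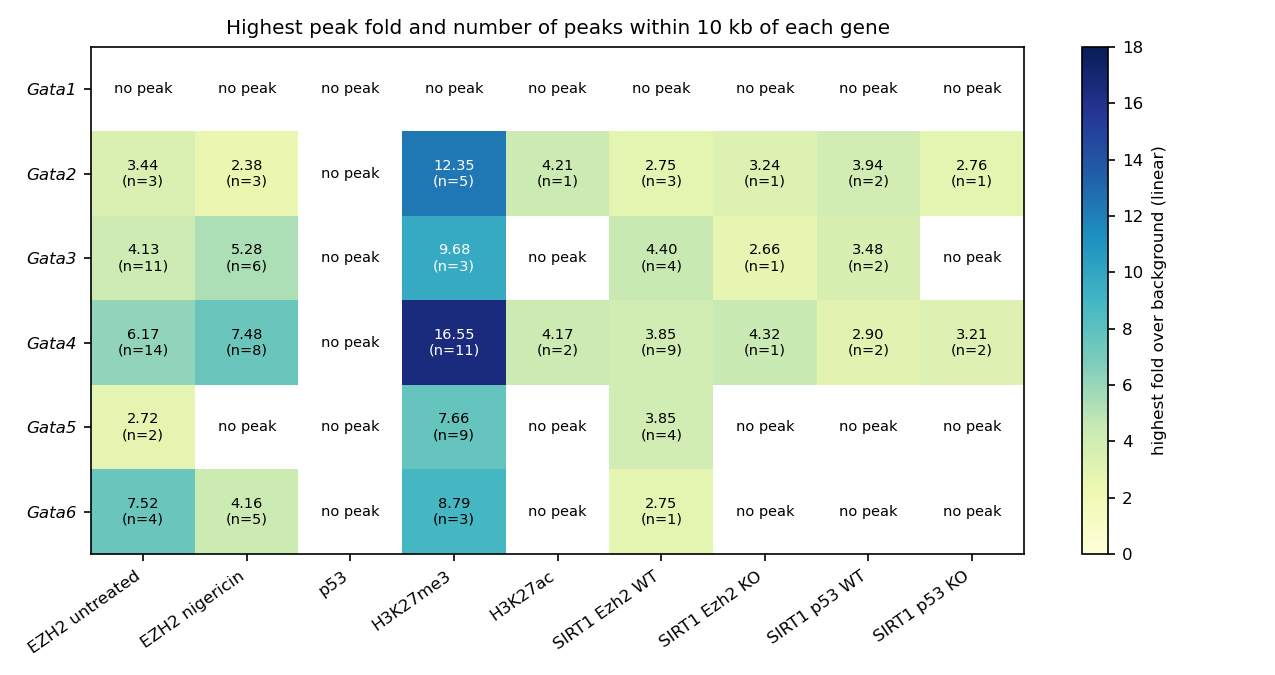
Highest peak fold (colour and upper number) and number of peaks (n) within 10 kb of each GATA gene in each of the 9 libraries; white cells have no peak. The H3K27me3 column holds the highest folds, up to 16.55 at Gata4, the p53 column and the Gata1 row are empty, and the SIRT1 columns stay at or below 4.40.

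After LPS and nigericin the EZH2 peaks stayed mostly in the same stretches, while the order of the genes differed from that in untreated cells. Gata4 had the highest fold (7.48), then Gata3 (5.28), Gata6 (4.16) and Gata2 (2.38), and Gata5 had no peak. Of the 34 untreated peaks 23 met a nigericin peak (67.6%, Wilson 95% interval 50.8 to 80.9), against 16.3% of all untreated peaks. In the other direction 20 of 22 met an untreated peak (90.9%, 72.2 to 97.5), against 34.5%. Among untreated GATA peaks with a q of at most 0.05, 16 of 17 were met, and among the weaker ones 7 of 17. In the whole list these shares were 52.9% and 8.34%. The bases under untreated peaks that were also under nigericin peaks came to 65.9% at Gata4, 57.0% at Gata3, 50.2% at Gata2, 37.3% at Gata6 and 0 at Gata5.

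Folds of overlapping peaks differed in opposite directions at different places of the family. For the 23 untreated GATA peaks with a partner, the ratio of the nigericin to the untreated fold (the strongest partner where there were several) had a median of 1.05, with quartiles of 0.836 and 1.38, and 13 were above 1. Over all 1593 such untreated peaks the median was 0.931 (0.731 to 1.18). A nigericin peak that met several untreated peaks entered the ratio of each, so the ratios are not independent. The 7.48-fold nigericin peak of Gata4, for example, met 3 untreated peaks. The lists are of unequal length, 9771 peaks untreated and 5128 after nigericin, and the differences in fold cannot be told apart from differences between 2 libraries.

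At the upper end of Gata4, 3 untreated peaks from 67800 to 71886 bp were 3.68-, 4.95- and 3.83-fold on 14, 28 and 22 fragments. They met 1 nigericin peak from 66901 to 72004 bp, 7.48-fold on 25 fragments, with its summit 41 bp from that of the 4.95-fold peak. The higher fold there came with fewer fragments than the middle untreated peak had, over a background of 2.48 against 4.86 fragments. In the middle of the gene the values went the other way. The 6.17-fold untreated peak met nigericin peaks of only 1.98- and 2.56-fold, on 15 and 10 fragments. The 5.82-fold one met 3 of 2.83-, 2.51- and 4.02-fold.

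Gata6 was lower after nigericin at its main peak, where 7.52-fold on 36 fragments met 2.60-, 3.01- and 4.16-fold on 14, 21 and 19 fragments. Gata3 showed 1 place with a higher fold: untreated peaks of 2.73- and 2.90-fold, on 15 and 14 fragments, met a nigericin peak of 5.28-fold on 18, whose background was 2.60 fragments against 4.86 and 4.16. Its strongest untreated peak, 4.13-fold, met one of 3.86-fold. At Gata3 the untreated peak at 19690 to 20662 bp had no nigericin partner. At Gata2 the peak at the outer start was 2.26-fold on 19 fragments untreated and met one of 2.38-fold on 22, and a further nigericin peak at 5123 to 5711 bp (2.38-fold), just past the inner start, met no untreated peak. The strongest untreated Gata2 peak, 3.44-fold (−log10 q 3.08), met one of 2.23-fold (−log10 q 0), a ratio of 0.647.

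**Figure D4:**
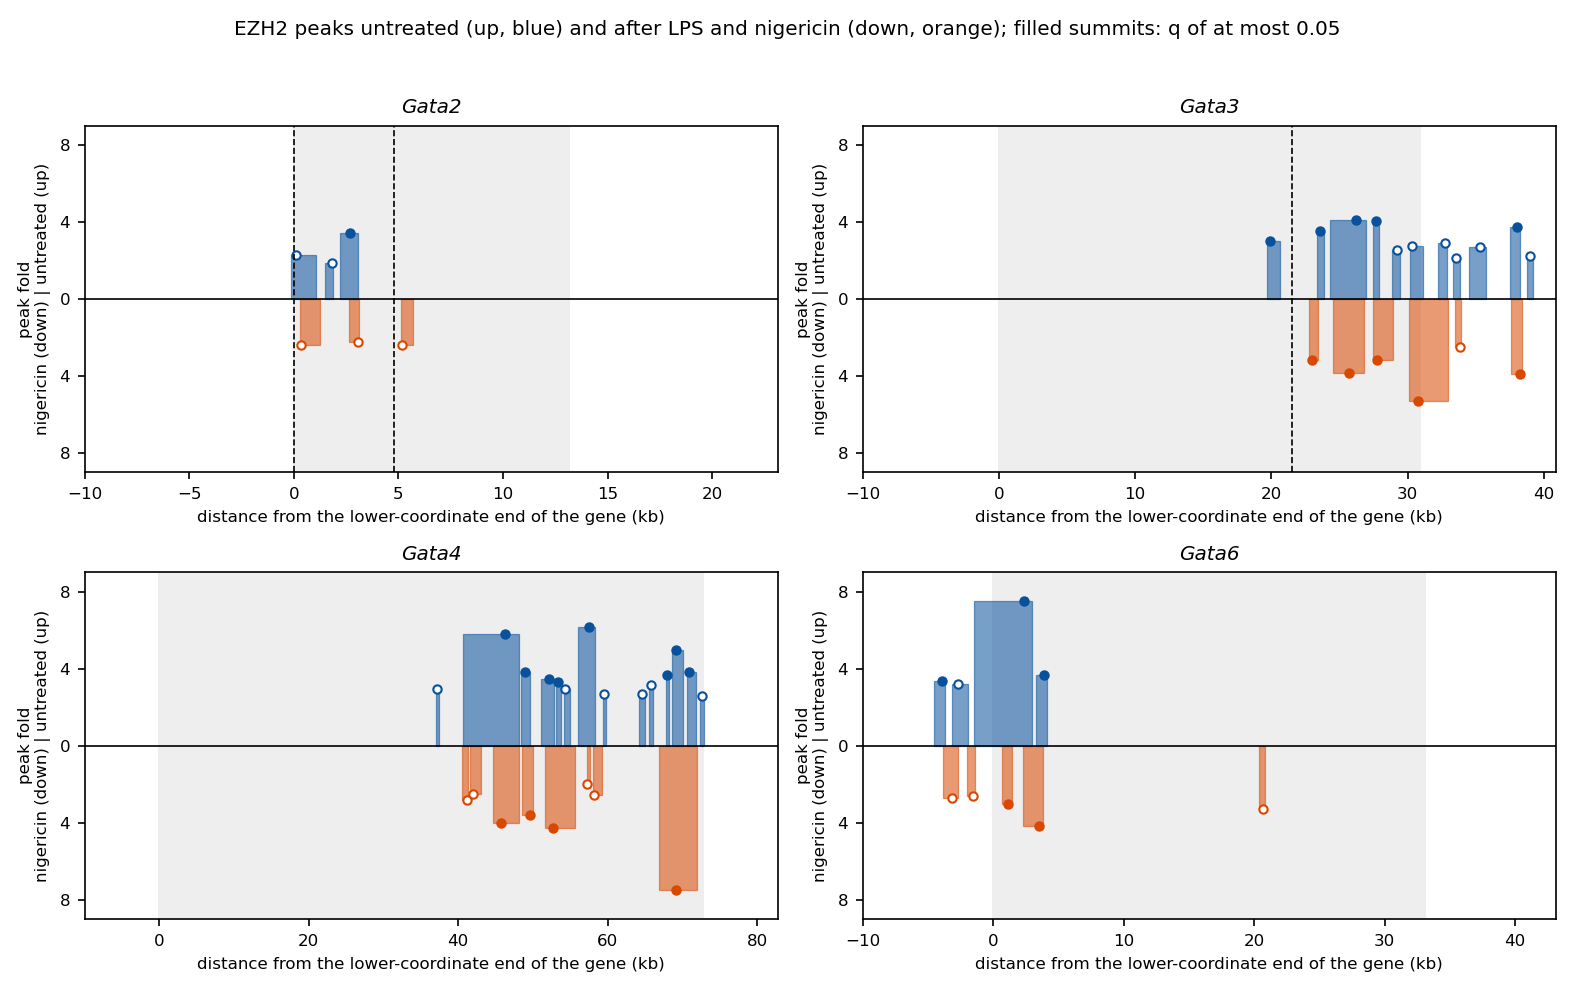
EZH2 peaks along Gata2, Gata3, Gata4 and Gata6, with untreated peaks drawn upward (blue) and peaks after LPS and nigericin downward (orange), height giving the fold; the x axis is the distance in kb from the gene's lower-coordinate end, dots are summits, filled where q is at most 0.05, grey is the gene, dashed lines are start sites. The 7.48-fold nigericin peak of Gata4 faces untreated peaks of 3.68 to 4.95, while the 7.52-fold untreated peak of Gata6 faces nigericin peaks of 2.60 to 4.16.

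No p53 peak lay in any of the 6 windows, where 7.5% of protein-coding genes had one. SIRT1 was called at 5 of the 6 GATA genes in the Ezh2 wild-type library, against 76.4% of protein-coding genes, and at 3 in the Ezh2 knockout library, against 44.5%. It was called at 3 in the p53 wild-type library, against 70.9%, and at 2 in the p53 knockout library, against 71.8%. The first pair of counts was near the background and the second below it, over 6 genes. The 33 SIRT1 peaks rested on 3 to 7 fragments each, and none had a q of at most 0.05.

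The 21 peaks of the Ezh2 wild-type list were spread as 9 at Gata4, 4 at Gata3, 4 at Gata5, 3 at Gata2 and 1 beside Gata6. At Gata4, 6 of the 9 gathered around the lower end, from −4880 to 6101 bp, where no EZH2 peak was called. The highest was 4.40-fold on 7 fragments in the body of Gata3, and a 2.75-fold peak on 4 fragments covered the inner start of Gata2. The Ezh2 knockout list held 3 peaks, 1 each at Gata2, Gata3 and Gata4, the last of 4.32-fold on 7 fragments. That list is much shorter as a whole, with 18170 peaks against 74767 in the Ezh2 wild-type list. The p53 wild-type list held 2 at each of these 3 genes, and the p53 knockout list 1 at Gata2 and 2 at Gata4.

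None of the 21 Ezh2 wild-type peaks met a peak of the Ezh2 knockout list (upper limit 15.5%), and 1.94% did over the whole list. The same held for the 6 p53 wild-type peaks against the p53 knockout list (upper limit 39.0%; 4.97% over the whole list). The 2 wild-type lists also shared no GATA peak (0 of 21 and 0 of 6), where 3.93% and 5.22% of all their peaks met. SIRT1 peaks lay over H3K27me3 in 17 of 21, 3 of 3, 6 of 6 and 3 of 3 cases. Over the whole lists 8.46%, 9.51%, 8.94% and 7.76% of peaks did, in the same order, while H3K27me3 covers 54.4% of these windows. A peak of the p53 wild-type list, 3.94-fold on 6 fragments, overlapped the H3K27ac peak inside Gata2, and no other SIRT1 peak in the windows met H3K27ac. Over the whole lists 9.97%, 15.5%, 12.3% and 13.3% of SIRT1 peaks met H3K27ac, in the same order.

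Gata1, the X-linked erythroid factor, had no peak of any kind. This was so for 1531 of the 21883 protein-coding genes (7.0%) and for 194 of the 966 on X (20.1%). Its nearest H3K27me3 peak was 30.5 kb away and touched Eras (4.30-fold), and its nearest H3K27ac peak was 111.3 kb away. The nearest EZH2 peak was 1178.8 kb away in the untreated list and 36.1 kb away in the nigericin list. The latter was 3.09-fold (−log10 q 0.558). The absence of a peak at these depths does not show that the marks are absent.

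Across the 9 lists, the genes with highest folds most like those of Gata6 were Foxd3 and Foxd1, at Euclidean distances of 0.144 and 0.448 on log2(fold + 1), with 7.83-fold EZH2 and 8.15-fold H3K27me3 at Foxd3. For Gata3 the nearest were Lhx4 (0.436) and Pax6 (0.443), for Gata2 Sema3f (0.237) and Iglon5 (0.454), for Gata5 Spint3 (0.225) and Gm1673 (0.399), and for Gata4 Cfap61 (0.854). Foxd3, Foxd1, Lhx4 and Pax6 encode transcription factors of development. Gata1 was tied with 1528 other genes with no peak.

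Of 18 genes that work with GATA factors, listed from general knowledge, 14 had an H3K27ac peak, against 41.6% of protein-coding genes, and 11 an H3K27me3 peak, against 42.7%. An untreated EZH2 peak was called at 8 (19.6% of all), a nigericin EZH2 peak at 5 (12.5%) and a p53 peak at 1 (7.5%). Both histone marks were called at 7 partners, Zfpm1, Zfpm2, Tal1, Ldb1, Runx1, Fli1 and Gfi1b. None of the 18 lacked both marks, against 31.6% of protein-coding genes. The share of all genes with both marks was not counted directly. It is fixed by 3 counts among the 21883 protein-coding genes: 9348 had H3K27me3, 9110 had H3K27ac and 6913 had neither. The blood partners Lmo2 (7.73-fold H3K27ac) and Lyl1 (6.46-fold) had no H3K27me3, while Zfpm1, which encodes the cofactor FOG1, had 5.88-fold H3K27me3, 3.32-fold H3K27ac and 2.42-fold EZH2. The heart factor genes Nkx2-5, Hand2 and Tbx5 had H3K27me3, at 13.3-, 9.14- and 8.15-fold, and no H3K27ac peak, whereas Zfpm2, which encodes the heart cofactor FOG2, had 3.46-fold H3K27me3 and 3.26-fold H3K27ac. EZH2 at Nkx2-5 was 6.36-fold untreated and 4.0-fold after nigericin.

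Listed targets of the family were read against the same shares, 42.7% of protein-coding genes for H3K27me3, 41.6% for H3K27ac and 19.6% for untreated EZH2. Of 9 erythroid targets of GATA1, 7 had H3K27me3, 2 had H3K27ac and none had an untreated EZH2 peak, for example Slc4a1, the red cell anion exchanger (7.91-fold H3K27me3). Of 6 T helper 2 genes linked to GATA3, 5 had H3K27me3 and 1 H3K27ac, and none had EZH2. H3K27me3 was 6.92-fold at the cytokine gene Il13 and 4.2-fold at Il4. Rad50 had the same fold as Il13, so a single peak may be counted for both. Of 10 endoderm and heart targets, 7 had H3K27me3, 2 H3K27ac and 4 an untreated EZH2 peak. After nigericin 5 of the 10 had an EZH2 peak, against 12.5% of protein-coding genes. EZH2 at the endoderm factor gene Foxa2 was 7.94-fold untreated and 2.69-fold after nigericin. Among 5 genes with a GATA-type zinc finger outside the family, 3 had H3K27ac, against 41.6%, and 1 H3K27me3, against 42.7%, with 7.0-fold H3K27ac at Gatad2a, a subunit gene of the NuRD complex.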

How the data were processed

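The 9 deposited narrowPeak lists (10 columns) were used. Each comes from 1 library and an input, per the labels, and none is pooled. MACS2, deepTools and the build GRCm38/mm10 are named in the submitters' processing notes. The aligner, its filters, tool versions and read totals are not stated in the sources at hand. Fold, as deposited, is the authors' ratio of summit fragments to background around the peak, with a pseudocount of 1 on both sides. For each peak the authors deposited the p-value and the q-value as −log10. In the histone lists the deposited score equals the −log10 q multiplied by 10, and no q exceeds 0.05. In the remaining lists the score follows the −log10 p in the same way, and q has no limit.

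Peaks on chromosomes 1 to 19, X and Y were joined to RefSeq gene bounds (GRCm38.p6), and a peak counted if it met the gene or 10 kb either side. Positions are bp from the gene's lower-coordinate end, negative outside it. Overlap meant at least 1 bp. Summit fragments were worked out from the fold and the p-value with the Poisson formula of MACS2, and came out within 0.0001 of the −log10 p for every peak in the windows. Intervals are Wilson 95%. Genes named are the 6 members, 2 genes nearest each by fold pattern (none within 100 kb) and up to 4 genes per list. Genes named beyond the first 4 of their list were chosen after their values were seen. These are partner genes, the targets Slc4a1, Rad50 and Foxa2, and the macrophage marker Spi1. A gene that this rule selects is not reported here. The members, gene lists and rules were chosen with earlier results of these data known. The overlap and window code was tested on simulated data. Python 3.11.15, pandas 2.3.3, numpy 2.4.6, scipy 1.17.1 and matplotlib 3.10.9 were used. With 1 library per group no test between conditions was run. Alternatives were other windows, stricter q limits, the summit rule, lists of equal length, a stricter overlap and other background genes.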

Additional observations from a re-analysis of the deposited data

How the results depend on the processing

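Of 184 recalculations under the alternatives, 143 stayed within 1.5 times the value given (counts and coverage) or within its interval (overlaps), and 41 moved. EZH2 peaks at the GATA genes fell from 34 to 17 untreated and from 22 to 11 after nigericin at a q of at most 0.05. At a −log10 q of at least 5, 6 and 2 peaks were left, at 3 and 2 genes, and H3K27me3 kept 18 peaks. The 4 SIRT1 lists had 0 peaks and 0 genes at either limit. With gene bounds only, H3K27me3 had 17 peaks, H3K27ac 1 peak at 1 gene and SIRT1 in Ezh2 wild type 13 peaks. With 25 kb either side, H3K27me3 had 55 peaks, H3K27ac 6, SIRT1 10 in the p53 wild-type list and 6 in the p53 knockout list. Cut to equal length, the SIRT1 lists gave 7 peaks at 3 genes (Ezh2 wild type), 2 peaks (p53 wild type) and 1 peak at 1 gene (p53 knockout). The Ezh2 knockout list, the shortest, kept its 3 peaks at 3 genes. With EZH2 and H3K27me3 both limited to a q of 0.05, 11 of 11 nigericin peaks met the mark (100%). H3K27me3 covered 18.8% of the Gata6 window with 25 kb either side. H3K27ac covered 4.29% of Gata2 within the gene bounds and 0.893% with 25 kb, and 0 of Gata4 within the gene bounds. Fewer peaks or a longer or shorter window make these changes by construction. The p53 count stayed at 0 throughout, and the SIRT1 overlaps could not be recalculated at a q of at most 0.05, where no peak was left. No paired analysis was possible because each group is 1 library and no result comes from a test. Each SIRT1 peak rests on 3 to 7 fragments, which limits the precision of its fold.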

Other observations

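Beyond the windows, from 10 to 25 kb outside the gene bounds, H3K27me3 went on around Gata2, Gata3, Gata4 and Gata5 and not around Gata6. Beside Gata2 a peak of 7.07-fold on 31 fragments ran from 26535 to 42964 bp past the lower end and touched Dnajb8, which encodes a heat shock cochaperone. Beyond the upper end of Gata4 there were 7 further H3K27me3 peaks of up to 6.18-fold. On its other side 3 weak H3K27ac peaks of 2.72- to 2.96-fold lay over Neil2 and Fdft1, a gene of sterol synthesis. Around Gata5 there were 9 H3K27me3 peaks of at most 4.2-fold. No EZH2 peak was called in any of these outer stretches.

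Markers of the other cells that use GATA factors were read in the same histone lists, where 42.7% of protein-coding genes had H3K27me3 and 41.6% H3K27ac. Of 8 erythroid and megakaryocyte genes 5 had H3K27me3 and 3 H3K27ac, of 6 mast cell and basophil genes 1 and 2, and of 5 eosinophil genes 1 and 2. Of 6 T and innate lymphoid genes 4 and 4 had the marks, and of 6 endothelial and stromal genes 5 and 4. No GATA gene other than Gata2 had an H3K27ac peak inside it. The part of other cells in the H3K27ac peak of Gata2 was not tested.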
